A study of Mus musculus with 8 samples.

Results

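Cytochrome P450 enzymes of families 1 to 4 were described in cells sorted from the mouse intestinal crypt. A gene counted as a member when its symbol began with Cyp, a family number of 1 to 4, a subfamily letter and a number, and when a non-control probe set named it and no other gene. Each gene was represented by the probe set with the highest mean over the 6 EphB2 arrays. By this rule 56 of 18193 genes with a probe set of their own were members, and all 56 entered the tests. The series holds 8 arrays of total RNA from intestinal crypt cells of C57BL/6 mice. Epithelial cells, freed with EDTA and then Dispase and DNase, were sorted into EphB2 High, EphB2 Medium and EphB2 Low with an antibody against EphB2, a surface receptor whose level is known to decline from the crypt base upward. These groups had 2 arrays each. Lgr5 High and Lgr5 Low cells, with 1 array each, were sorted by the fluorescence of an Lgr5-EGFP knock-in allele, a reporter of the stem cell receptor gene Lgr5. The labels give no age, no sex and no treatment of the mice, and do not say whether the replicates came from different animals. The p-values therefore cover only the scatter of these arrays, which may be technical.

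P450 enzymes are haem proteins, mostly anchored in the endoplasmic reticulum, that insert an oxygen atom into their substrates with electrons passed on by cytochrome P450 reductase and cytochrome b5. Families 1 to 3 are best known for the oxidation of drugs, dietary chemicals and steroids, and several of them are switched on by the receptors AhR, CAR and PXR. Family 4 enzymes and some of family 2 act mainly on fatty acids and eicosanoids. In the intestine, the enzymes of the Cyp3a and Cyp2b subfamilies are known for first-pass metabolism of swallowed compounds in absorptive cells of the villus.

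Values are log2 levels as the authors deposited them, and a difference of 1 is a 2-fold change. No background level of the arrays was used here, so a difference against a low level is given on the log2 scale and not as a fold. Array medians over all probe sets lay between 6.12 and 6.20, and the levels of all genes had a median of 7.92. The EphB2 sort could not be checked on the gene of EphB2 itself, which was not analysed here. Lgr5, the gene behind the other sort, had levels of 9.48 and 9.64 in EphB2 High, 7.70 and 8.01 in EphB2 Medium, and 5.66 and 4.96 in EphB2 Low. In the Lgr5 sort, the same gene stood at 10.15 in Lgr5 High and 5.75 in Lgr5 Low. All 8 stem cell markers measured were higher in EphB2 High than in EphB2 Low, and all 9 measured enterocyte markers were lower (adjusted p below 0.05, limma). The 7 T cell markers, the 3 B cell markers and the 2 red blood cell markers all had mean levels below the median of all genes, as had 7 of 8 stromal and 5 of 7 myeloid markers. Of all measured markers of these cell types, 2 T cell markers were lower in EphB2 High, and 1 B cell and 2 myeloid markers were higher. These 2 myeloid markers, Cd68 (8.42 and 7.75 in EphB2 High) and Lyz2 (10.31 and 10.35), were not among those below the median. No stromal or red blood cell marker was called. The part of non-epithelial cells in the results was not tested.

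In EphB2 High against EphB2 Low, the P450 genes fell far more often than they rose. Of the 56 members, 27 were lower in EphB2 High, 4 were higher and 25 were not called (adjusted p below 0.05, limma with Benjamini-Hochberg adjustment over all 18193 genes). This is 48.2% of members lower and 7.14% higher, against a background of 15.3% of all genes lower and 22% higher, or 37.3% in either direction. The median difference over the members was -0.48, against 0.01 over all genes. All 31 called members had the same sign in both hybridizations, each of which held 1 array of every EphB2 group. The calls were made from these same arrays, so the shared sign is no separate support. The fall reached at least 2-fold in 23 members. It reached 4 log2 units or more in 6 members, 10.7% of them, against 0.489% of all genes.

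**Figure D1:**
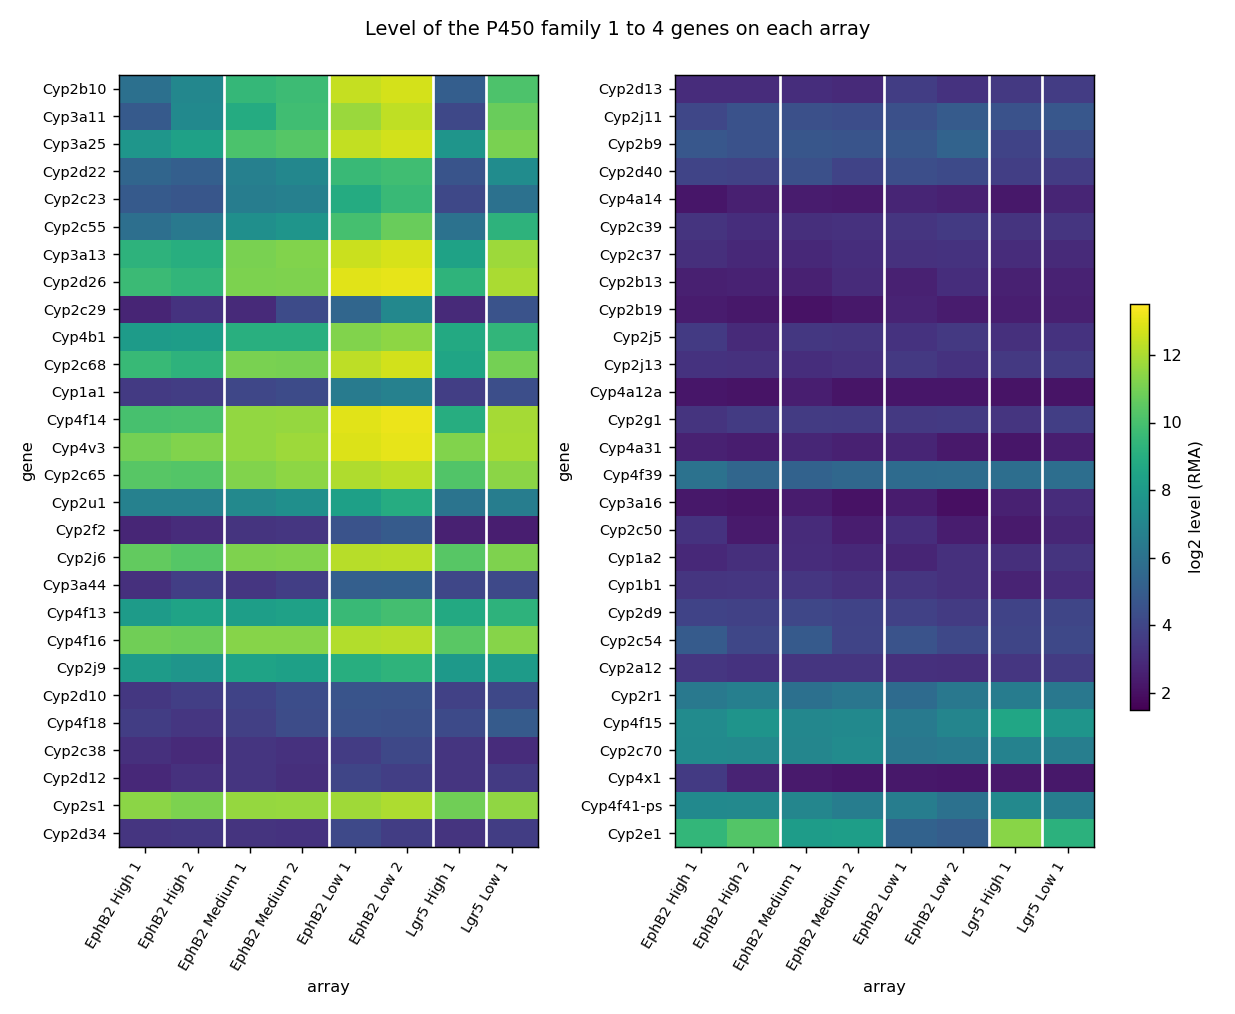
Level of each of the 56 P450 genes on each of the 8 arrays, as log2 values in colour, with genes ordered by the difference of EphB2 High minus EphB2 Low from the most negative (top left) to the most positive (bottom right). The rows at the top left darken toward EphB2 High and Lgr5 High, and Cyp2e1, in the last row, runs the other way; colours are to be read along a row, since levels of different probe sets cannot be set against each other.

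Cyp2e1, which oxidizes ethanol and small solvents, was the member with the largest rise toward the crypt base. Its levels were 9.44 and 10.31 in EphB2 High, 8.13 and 8.22 in EphB2 Medium, and 5.28 and 5.02 in EphB2 Low. The 3 groups did not overlap, and both Low arrays lay below the median of all genes. The difference of EphB2 High minus EphB2 Low was 4.73 (SE 0.29, adjusted p = 0.000313, limma), and it was 4.16 in the first hybridization and 5.30 in the second. In the Lgr5 sort, Cyp2e1 had a level of 11.38 in Lgr5 High and 9.21 in Lgr5 Low, so both arrays of that sort lay above every EphB2 Low and EphB2 Medium array. The Lgr5 arrays form a hybridization of their own, so sort and hybridization cannot be told apart in such a comparison of levels.

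At the other end stood Cyp3a11, the main mouse Cyp3a drug-metabolizing enzyme and a known target of PXR, and Cyp2b10, the classical target of CAR. Cyp3a11 had levels of 4.90 and 7.20 in EphB2 High, 8.87 and 9.84 in EphB2 Medium, and 11.71 and 12.36 in EphB2 Low. The groups did not overlap, but the 2 High arrays differed from each other by far more than the Low arrays did, with an SD of 1.63 in EphB2 High and 0.46 in EphB2 Low. Cyp3a11 fell by 5.99 (SE 0.76, adjusted p = 0.00248, limma). Without EphB2 High replicate 1 the difference was -4.83, and without EphB2 High replicate 2 it was -7.14.

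Cyp2b10 had levels of 5.93 and 7.03 in EphB2 High, 9.49 and 9.74 in EphB2 Medium, and 12.42 and 12.74 in EphB2 Low. Here too the groups lay apart and the second High array was the higher one. Cyp2b10 fell by 6.10 (SE 0.36, adjusted p = 0.000294, limma). Its 2 further probe sets, which carry the array maker's mark for probes common to several transcripts and are uncertain to that extent, gave -6.98 and -6.97, with 4.15 and 6.54, and 4.61 and 6.94, in EphB2 High. The enterocyte markers were split in the order of the 2 High arrays. Lct had 8.03 in EphB2 High replicate 1 and 8.98 in EphB2 High replicate 2, and Mep1a had 8.26 and 8.87. Apoa1 had 11.26 and 11.80, and Fabp2 13.42 and 13.60. Alpi went the other way with 11.09 and 10.09. Little apart were Anpep (10.33 and 10.32), Apoa4 (10.07 and 10.05), Fabp1 (13.28 and 13.21) and Vil1 (12.79 and 12.79). The median level of the enterocyte markers was 11.09, that of Alpi, in EphB2 High replicate 1. In EphB2 High replicate 2 it was 10.32, that of Anpep, against 13.61 and 13.69 in EphB2 Low. The middle marker was thus a different gene, so the medians do not show that the markers as a set were lower in replicate 2.

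**Figure D2:**
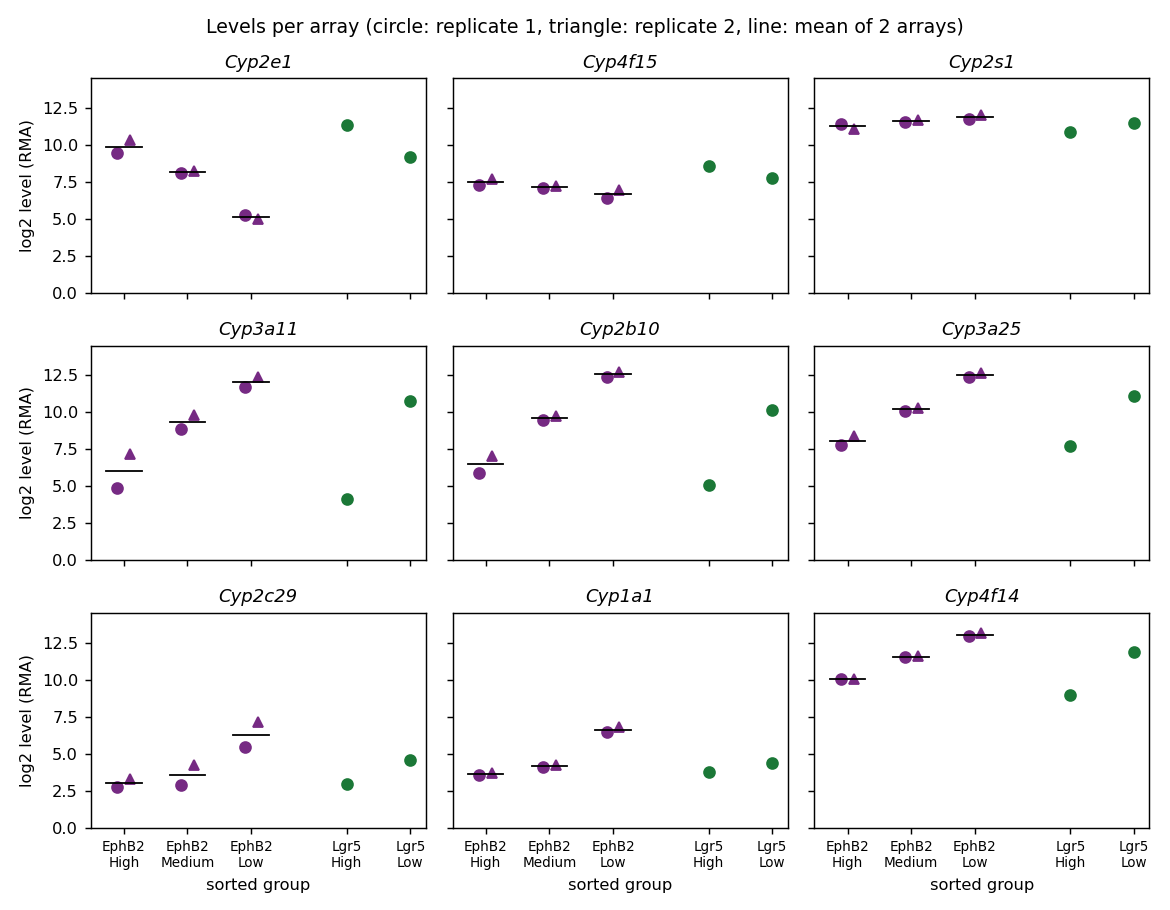
Log2 level of 9 P450 genes on each array, with circles for replicate 1, triangles for replicate 2 and a line for the mean of the 2 arrays of an EphB2 group; the Lgr5 groups have 1 array each. Cyp2e1 descends from EphB2 High to EphB2 Low, Cyp3a11, Cyp2b10, Cyp3a25 and Cyp4f14 ascend, and the 2 High arrays of Cyp3a11 stand apart at 4.90 and 7.20.

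The bases before the start sites of 4 members are shown because these genes carry the opposite ends of the gradient and the best known routes of induction. They are the 250 bases before the RefSeq start in GRCm38.p6, read 5′ to 3′ on the gene's strand, and 43 of the 56 members had such an entry. Capitals mark matches on either strand to TATAAA (the TATA box), CAAAGTCCA (bound by HNF4 factors), GCGTG (the core bound by AhR) and TTTATNG (bound by CDX factors).
Cyp2e1, chr7:140763569-140763818, plus strand: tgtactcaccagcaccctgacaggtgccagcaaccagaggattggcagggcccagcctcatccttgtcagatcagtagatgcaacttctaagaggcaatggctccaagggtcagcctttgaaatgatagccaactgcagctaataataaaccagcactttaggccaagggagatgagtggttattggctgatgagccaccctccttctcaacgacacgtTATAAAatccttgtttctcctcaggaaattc
Cyp3a11, chr5:145879855-145880104, minus strand: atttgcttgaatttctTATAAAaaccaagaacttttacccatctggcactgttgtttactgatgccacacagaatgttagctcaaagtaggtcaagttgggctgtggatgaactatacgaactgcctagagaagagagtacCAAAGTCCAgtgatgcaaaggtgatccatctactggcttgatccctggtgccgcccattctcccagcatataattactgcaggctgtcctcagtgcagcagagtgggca
Cyp2b10, chr7:25897408-25897657, plus strand: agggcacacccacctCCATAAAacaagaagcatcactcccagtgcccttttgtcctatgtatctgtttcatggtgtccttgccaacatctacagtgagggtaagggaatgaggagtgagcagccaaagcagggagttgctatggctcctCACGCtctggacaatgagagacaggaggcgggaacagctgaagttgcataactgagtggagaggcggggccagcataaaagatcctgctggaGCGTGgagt
Cyp1a1, chr9:57697363-57697612, plus strand: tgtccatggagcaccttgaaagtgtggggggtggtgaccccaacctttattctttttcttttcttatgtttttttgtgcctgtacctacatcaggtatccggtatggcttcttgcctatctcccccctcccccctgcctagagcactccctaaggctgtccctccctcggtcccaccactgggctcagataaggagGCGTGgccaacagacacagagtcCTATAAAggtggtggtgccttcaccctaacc

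The TATA match ended 26 bases before the start in Cyp2e1 and 25 bases before it in Cyp1a1, where the CDX letters overlap it, while the TATA match of Cyp3a11 lay 234 to 229 bases before the start. The HNF4 letters of Cyp3a11 stood 109 to 101 bases before the start. Among the members with an entry, these HNF4 letters were found in 3 of 23 that were lower in EphB2 High (Cyp3a11, Cyp2c65 and Cyp2c68), in 1 of 3 that were higher (Cyp2c70) and in 1 of 17 that were not called (Cyp3a16), against 0.384% of 32851 mouse promoters of the same length. TATAAA was found in 9 of 23 lower, 2 of 3 higher and 6 of 17 uncalled members, against 12.4% of all promoters. GCGTG was found in 7 of 23, 0 of 3 and 3 of 17, against 28.2% of all promoters. TTTATNG was found in 4 of 23, 1 of 3 and 2 of 17 members, against 9.81%. A member with several entries was counted when any of them matched, while the share of all promoters was taken over entries. Members of a subfamily descend from common ancestors and share promoter sequence, so these counts are a description.

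Of the 5 Cyp3a genes, 4 were lower in EphB2 High, Cyp3a11 among them, and 1 was not called. Cyp3a25 had levels of 7.79 and 8.37 in EphB2 High, 10.12 and 10.33 in EphB2 Medium, and 12.40 and 12.67 in EphB2 Low, and it fell by 4.45 (SE 0.22, adjusted p = 0.000219, limma). Cyp3a13 had 9.24 and 9.03 in EphB2 High, 11.10 and 11.25 in EphB2 Medium, and 12.54 and 12.77 in EphB2 Low, a difference of -3.52 (SE 0.15, adjusted p = 0.000148). In both genes the groups did not overlap, and the High arrays of Cyp3a25 were the farthest apart of the replicate pairs. Cyp3a44, with all 6 arrays between 3.16 and 5.19 and so below the median of all genes, differed by -1.70 (adjusted p = 0.0026). Cyp3a16 differed by 0.02 and was not called. Some Cyp3a genes are close copies of one another, and whether a low signal such as that of Cyp3a44 comes from another copy was not tested.

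Of the 11 Cyp2c genes, whose enzymes oxidize drugs and convert arachidonic acid to epoxides and alcohols, 6 fell, 1 rose and 4 were not called. Cyp2c55 had levels of 5.90 and 6.36 in EphB2 High, 7.46 and 7.78 in EphB2 Medium, and 9.96 and 10.76 in EphB2 Low, a difference of -4.23 (SE 0.31, adjusted p = 0.000532, limma). Cyp2c23, an epoxygenase of arachidonic acid, had 4.90 and 4.73 in EphB2 High, 6.59 and 6.73 in EphB2 Medium, and 8.90 and 9.63 in EphB2 Low, a difference of -4.45 (SE 0.25, adjusted p = 0.000255). No array of one group reached into another in either gene. Cyp2c68 differed by -3.06 (SE 0.18, adjusted p = 0.000297) and Cyp2c65 by -1.85 (SE 0.13, adjusted p = 0.000531).

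Cyp2c29 varied most within its groups after Cyp3a11, with levels of 2.74 and 3.26 in EphB2 High, 2.91 and 4.23 in EphB2 Medium, and 5.44 and 7.11 in EphB2 Low. High and Medium overlapped, and both lay below Low. The difference of EphB2 High minus EphB2 Low was -3.28 (SE 0.65, adjusted p = 0.0111, limma), and it ranged between -4.11 (EphB2 Low replicate 1 left out) and -2.44 (EphB2 Low replicate 2 left out). The call did not survive leaving out EphB2 High replicate 1 (adjusted p = 0.0601). The sixth Cyp2c gene that fell, Cyp2c38, stayed between 2.94 and 4.08 with a difference of -0.82 (adjusted p = 0.0148, limma). Leaving out EphB2 High replicate 2 ended that call (0.0869).

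Of the 8 Cyp2d genes 4 fell and 4 were not called. Cyp2d26 had levels of 9.68 and 9.42 in EphB2 High, 11.14 and 11.20 in EphB2 Medium, and 12.96 and 13.03 in EphB2 Low, a difference of -3.45 (SE 0.13, adjusted p = 0.000131, limma). Cyp2d22, a mouse relative of the human Cyp2d drug-metabolizing enzyme, had 5.40 and 5.15 in EphB2 High, 6.71 and 7.04 in EphB2 Medium, and 9.62 and 9.84 in EphB2 Low, a difference of -4.45 (SE 0.17, adjusted p = 0.000131). In both genes every High array lay below every Medium array, and every Medium array below every Low array. Cyp2d10 and Cyp2d12, at 4.61 or less on every EphB2 array, differed by -1.02 (adjusted p = 0.00752) and -0.79 (adjusted p = 0.0174), and leaving out the first array of EphB2 High (0.0872) or of EphB2 Low (0.0728) ended the call of Cyp2d12.

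Cyp1a1, the classical target of AhR and an enzyme that oxidizes polycyclic aromatic compounds, had levels of 3.53 and 3.67 in EphB2 High, 4.07 and 4.26 in EphB2 Medium, and 6.49 and 6.78 in EphB2 Low. Every array lay below the median of all genes, and the Low arrays stood clear of the other 4. The difference was -3.04 (SE 0.15, adjusted p = 0.000219, limma). Its relatives Cyp1a2 and Cyp1b1 were not called.

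Family 4, whose enzymes act mainly on fatty acids and eicosanoids, had 6 of 13 members lower in EphB2 High, 2 higher and 5 not called. Cyp4f14, which hydroxylates leukotriene B4, had levels of 10.02 and 10.03 in EphB2 High, 11.55 and 11.58 in EphB2 Medium, and 12.97 and 13.14 in EphB2 Low, a difference of -3.03 (SE 0.12, adjusted p = 0.000131, limma). Cyp4b1, known in lung for activating plant toxins, had 8.08 and 8.16 in EphB2 High, 9.07 and 9.05 in EphB2 Medium, and 11.24 and 11.47 in EphB2 Low, a difference of -3.23 (SE 0.13, adjusted p = 0.000136). Replicates of these genes lay close together, and the groups were far apart. Cyp4v3, a fatty acid hydroxylase, differed by -1.86 (adjusted p = 0.000698), Cyp4f13 by -1.49 (adjusted p = 0.00188) and Cyp4f16 by -1.31 (adjusted p = 0.000852).

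The Cyp2j enzymes form epoxides from fatty acids, and 2 of 5 fell. Cyp2j6 had levels of 10.64 and 10.35 in EphB2 High, 11.18 and 11.24 in EphB2 Medium, and 12.19 and 12.28 in EphB2 Low, a difference of -1.74 (SE 0.14, adjusted p = 0.000686, limma). Cyp2j9 differed by -1.24 (adjusted p = 0.00277). Cyp2u1, a hydroxylase of long-chain fatty acids, differed by -1.84 (adjusted p = 0.00236), and Cyp2f2, best known from lung, by -1.83 (adjusted p = 0.00103) with every EphB2 array at 4.93 or lower. The smallest fall called was that of Cyp2s1, at 11.42 and 11.11 in EphB2 High, 11.58 and 11.66 in EphB2 Medium, and 11.78 and 12.03 in EphB2 Low. It differed by -0.64 (adjusted p = 0.0228), and leaving out the second array of EphB2 High (0.12) or of EphB2 Low (0.0995) ended the call.

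Apart from Cyp2e1, 3 members rose, each by less than 2-fold and each below the median of all genes in every EphB2 group. Cyp2c70, which hydroxylates bile acids in mouse liver, had levels of 7.23 and 7.15 in EphB2 High, 6.99 and 7.27 in EphB2 Medium, and 6.26 and 6.46 in EphB2 Low, a difference of 0.82 (SE 0.15, adjusted p = 0.00753, limma). The High and Medium arrays overlapped, and all 4 lay above the Low arrays. The pseudogene Cyp4f41-ps differed by 0.91 (SE 0.24, adjusted p = 0.0297), a call that ended when EphB2 High replicate 1 (0.117), EphB2 High replicate 2 (0.104) or EphB2 Low replicate 2 (0.102) was left out. Cyp4f15 had 7.30 and 7.69 in EphB2 High, 7.06 and 7.20 in EphB2 Medium, and 6.41 and 6.98 in EphB2 Low, a difference of 0.80 (SE 0.23, adjusted p = 0.0402). Its adjusted p was above the threshold when either array of EphB2 High (0.0576 and 0.189), either array of EphB2 Medium (0.0668) or EphB2 Low replicate 1 (0.128) was left out, so the call rests on all of them. Cyp4f18, a leukotriene hydroxylase of mouse neutrophils, went the other way at -0.95 (adjusted p = 0.0135, limma), and its other probe set gave -0.09. The call of Cyp4f18 ended when EphB2 High replicate 2 (difference -0.82) or either EphB2 Low array (-0.91 and -1.00) was left out.

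The 25 uncalled members stayed between 1.97 and 6.68 on the EphB2 arrays, and 22 of them never reached 5, so an absent call says little about them. Cyp2r1, a vitamin D 25-hydroxylase, differed by 0.52 (adjusted p = 0.165, limma) and passed the test with the hybridization as a block (adjusted p = 0.036). Cyp4x1, the nearest miss, had levels of 3.52 and 2.68 in EphB2 High, 2.38 and 2.21 in EphB2 Medium, and 2.27 and 2.23 in EphB2 Low. Its difference of 0.85 had an adjusted p of 0.0579 with limma and 0.0393 with the block. All 3 Cyp4a genes were among the uncalled, as were Cyp4f39, Cyp2b9, Cyp2j11 and Cyp2c54. A probe set that names both Cyp4a31 and Cyp4a10, and so is outside the membership, differed by -2.45, which was not tested. Over the 56 members, 20 had a group mean above the median of all genes in at least 1 EphB2 group and 36 did not.

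**Figure D3:**
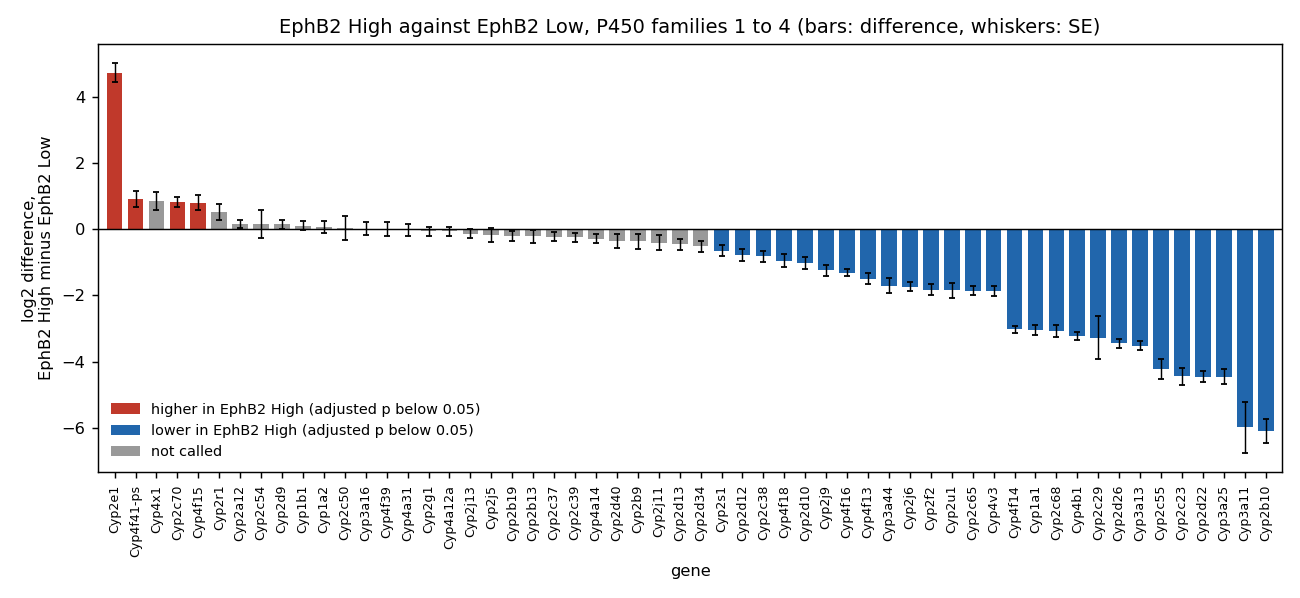
Log2 difference of EphB2 High minus EphB2 Low for each of the 56 P450 genes (bars) with its standard error (whiskers), 2 arrays a group. The 27 blue bars, lower in EphB2 High, reach -6.10 for Cyp2b10; of the 4 red bars, Cyp2e1 stands at 4.73 and the others below 1; the 25 grey bars were not called.

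The order of the 3 groups was then set against the arrays themselves. In 23 of 56 members, or 41.1%, the arrays ran High below Medium below Low with no overlap, against 12.4% of all genes. The opposite order was seen in 3 members, Cyp2e1, Cyp4f15 and Cyp4f41-ps, or 5.36%, against 17.7% of all genes. Both High arrays lay below both Low arrays in 34 members (background 31.7%) and above them in 8 (background 36.4%).

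EphB2 Medium against EphB2 Low shares its Low arrays with the comparison above, and the values are given side by side rather than as separate support. Here 21 members were lower in EphB2 Medium and 2 were higher, against 10.1% of all genes lower and 14.6% higher, or 24.7% in all. The median over the members was -0.40. The largest falls were Cyp2b10 at -2.96 (adjusted p = 0.00592, limma), Cyp2d22 at -2.85 (0.00127), Cyp2c55 at -2.74 (0.00479), Cyp2c29 at -2.70 (0.0321), Cyp2c23 at -2.61 (0.00329) and Cyp1a1 at -2.47 (0.0013). Cyp2c29 lost this call without either EphB2 Medium array, either EphB2 High array or EphB2 Low replicate 2. The rises were Cyp2e1 at 3.03 (SE 0.29, adjusted p = 0.00329) and Cyp2c70 at 0.77 (adjusted p = 0.0165), and the second was lost without EphB2 Medium replicate 2 (0.0885) or EphB2 Low replicate 1 (0.055). Cyp3a11 differed by -2.69 (SE 0.76) and just missed the threshold at an adjusted p of 0.0528, which became 0.0165 with the hybridization as a block.

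EphB2 High was also set directly against EphB2 Medium. Of the 56 members 10 were lower in EphB2 High and 0 were higher, against 1.15% of all genes lower and 0.214% higher, or 1.36% in all. At an unadjusted p below 0.05, 20 members were lower and 2 were higher. The falls called were Cyp2b10 at -3.14 (adjusted p = 0.0255, limma), Cyp3a25 at -2.14 (0.0197), Cyp3a13 at -2.04 (0.0113), Cyp2c23 at -1.84 (0.0358), Cyp2d26 at -1.62 (0.0121) and Cyp2c68 at -1.61 (0.0245). The other 4 were Cyp2d22, Cyp4f14, Cyp2c65 and Cyp4b1, the last with the smallest margin at -0.94 (0.0364). With the block, Cyp2c23 (0.0532) and Cyp2c65 (0.0502) left the list and Cyp2c55 (-1.49, 0.0354) joined it. Neither Cyp2e1, with a difference of 1.70 (SE 0.29, adjusted p = 0.0665), nor Cyp3a11, with -3.30 (SE 0.76, adjusted p = 0.134), passed. This comparison rests on few arrays: without either EphB2 Medium array no gene of the 18193 was called, without EphB2 High replicate 1 or 2 the members lower numbered 3 and 2, and without either EphB2 Low array they numbered 5.

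Whether the change between High and Medium differed from that between Medium and Low was tested as the difference of the 2 steps. No member was called (0 of 56 with limma, 9 at an unadjusted p below 0.05), against a background of 0.0055%, or 1 gene. Cyp1a1 came closest, with a step of -0.57 between High and Medium and -2.47 between Medium and Low, a difference of the steps of 1.90 (SE 0.26, adjusted p = 0.146). For Cyp2e1 the steps were 1.70 and 3.03 (difference -1.33, adjusted p = 0.393). For Cyp3a11 they were -3.30 and -2.69, and the difference of -0.61 changed sign without EphB2 High replicate 1 or EphB2 Medium replicate 2.

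The Lgr5 sort had 1 array a group, so its differences have no replicate check and no test. Cyp3a11 had a level of 4.12 in Lgr5 High and 10.75 in Lgr5 Low, a difference of -6.63. Cyp2b10 had 5.10 in Lgr5 High and 10.13 in Lgr5 Low, a difference of -5.03. Both Lgr5 High values lay below the EphB2 High arrays of the same genes, which belong to other hybridizations. Next came Cyp3a25 with 7.74 in Lgr5 High and 11.08 in Lgr5 Low, Cyp3a13 with 8.41 and 11.74, Cyp2c55 with 6.02 and 9.25, and Cyp4f14 with 8.96 and 11.90, in the same order. The gene with the largest rise was again Cyp2e1, 2.17 log2 units higher in Lgr5 High, followed by Cyp4f15 with 8.59 in Lgr5 High and 7.77 in Lgr5 Low.

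Of the 56 members, 12 (21.4%) were lower by at least 2-fold in Lgr5 High, against 5.07% of all genes, and 1 was higher, against 2.34%. Of these 12, 9 had a level above the median of all genes on at least 1 Lgr5 array. Of the 27 members lower in EphB2 High, 25 were also lower in Lgr5 High, a share near that of all genes lower in EphB2 High (89.6%). This counts differences of any size, down to -0.07 for Cyp2j9. The sizes did not always match between the sorts. Cyp4f14 differed by -3.03 in the EphB2 sort and -2.94 in the Lgr5 sort, but Cyp1a1 by -3.04 and -0.64, and Cyp4b1 by -3.23 and -0.64. The Lgr5 Low level lay between the EphB2 High and EphB2 Low means for 23 of the 27, against 76% of all genes lower in EphB2 High. For 14 of the 27 the Lgr5 High level was at or below the lower EphB2 High array, against 56.6%. These comparisons of levels cross hybridizations, which cannot be told apart from the sorts. The enterocyte markers had a median level of 9.22 in Lgr5 High and 13.12 in Lgr5 Low, and the stem cell markers 12.33 in Lgr5 High and 11.29 in Lgr5 Low. In bulk samples such as these, fewer cells of a type and less RNA per cell cannot be told apart, and the part of enterocyte content in the P450 differences was not tested.

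**Figure D4:**
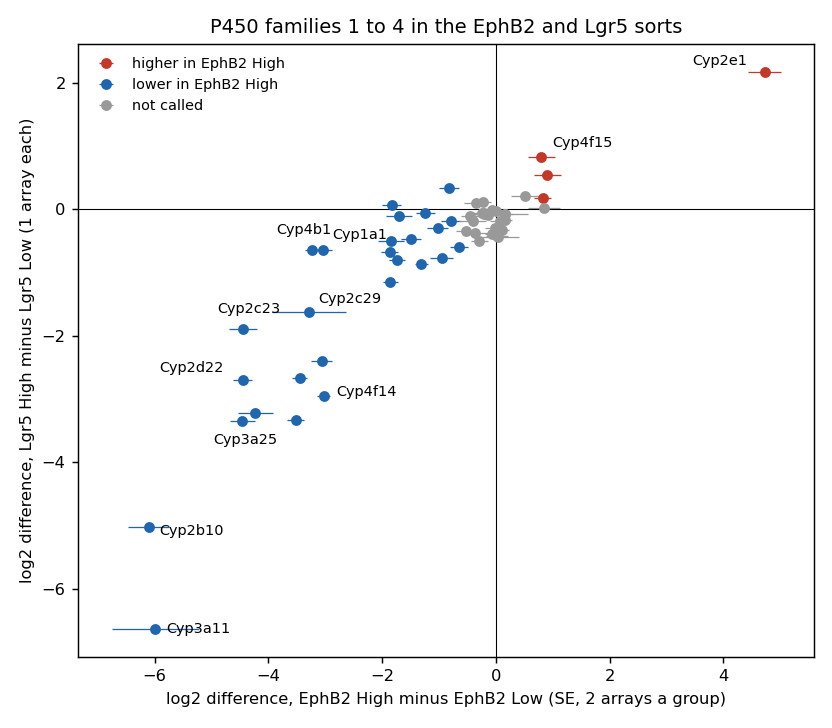
Log2 difference of EphB2 High minus EphB2 Low (horizontal axis, bars for the standard error, 2 arrays a group) against that of Lgr5 High minus Lgr5 Low (vertical axis, 1 array each) for the 56 P450 genes. Cyp3a11 and Cyp2b10 lie at the lower left, below -5 on both axes, and Cyp2e1 at the upper right at 4.73 and 2.17.

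Many P450 genes lie in clusters of neighbours, and 48 of the 56 members fell into 8 clusters when neighbours up to 1 Mb apart in GRCm38.p6 were joined. Each of the 8 clusters held at least 1 gene that fell and at least 1 that was not called. Among all 18193 genes 11401 were not called, and among the 56 members 25, so an uncalled gene in a cluster is nothing particular. In the cluster of 10 Cyp2c genes, 5 fell, 1 rose and 4 were not called. The cluster of Cyp4f genes held 3 that fell, 2 that rose and 1 uncalled. Cyp2b10 shares its cluster of 8 with Cyp2b9, Cyp2b13 and Cyp2b19, none of which was called, and with Cyp2s1 and Cyp2f2, which fell.

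Probe sets of P450 genes can share sequence between copies. The probe sets of Cyp2c65, Cyp4v3 and Cyp2c23 carry the mark for probes common to several transcripts, and their values are uncertain too. Among the called members, 7 had further probe sets that name no other gene, 8 in all, of which 3 (for Cyp2b10 and Cyp4f16) carry a mark for shared probes. All 8 had the sign of the one used. All but that of Cyp4f18 differed by at least 1.20 in size. The 4 probe sets that name several genes of these families were left out of the membership, and among them the one for Cyp4a31 and Cyp4a10 had levels of 6.34 and 6.19 in EphB2 High, 7.53 and 7.61 in EphB2 Medium, and 8.18 and 9.26 in EphB2 Low.

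Genes that work with the P450s were read from lists, against the 15.3% of all genes lower and 22% higher in EphB2 High. Of 7 measured redox partners, 5 (71.4%) were lower in EphB2 High and 1 (14.3%) was higher, with a median of -0.65. The cytochrome b5 reductase gene Cyb5r3 fell by 1.71 (adjusted p = 0.00056, limma), with means of 10.08 ± 0.11 in EphB2 High and 11.79 ± 0.13 in EphB2 Low (SD, n = 2 each). Its relative Cyb5r1 rose by 1.49 (adjusted p = 0.00167), with means of 11.69 ± 0.03 in EphB2 High and 10.20 ± 0.31 in EphB2 Low. The cytochrome b5 genes Cyb5b and Cyb5a differed by -0.69 and -0.65 and were called lower. The gene of P450 reductase itself, Por, was not analysed here.

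Of 25 measured regulators, 13 (52%, against 15.3% of all genes) were lower in EphB2 High and 0 (against 22%) were higher (limma; 1 was higher at an unadjusted p below 0.05), with a median of -0.44. Nr1i3, which encodes CAR, had levels of 8.47 and 8.11 in EphB2 High, 9.55 and 9.46 in EphB2 Medium, and 10.95 and 11.04 in EphB2 Low, a difference of -2.70 (SE 0.15, adjusted p = 0.000267). Also lower were the coactivator gene Ppargc1a at -2.04 (adjusted p = 0.000465), the nuclear receptor gene Hnf4g at -1.67 (0.000687) and the corepressor gene Nr0b2 at -1.59 (0.000883). Named after their values were seen, Nr1i2, which encodes PXR, fell by 1.55 (0.00138), while Ahr (0.12, adjusted p = 0.62) and Hnf4a (0.07, adjusted p = 0.652) were not called. In the Lgr5 sort, with 1 array a group and no test, the named regulators that fell were split. Lgr5 High minus Lgr5 Low was -2.12 for Nr1i3 and -1.47 for Hnf4g. It was -0.38 for Ppargc1a, -0.03 for Nr1i2 and -0.02 for Nr0b2.

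Of 13 measured haem genes, 2 (15.4%) were lower and 2 (15.4%) higher, with a median of -0.08; the lower share is that of all genes. Alas1, the rate-limiting enzyme of haem synthesis, fell by 0.82 (adjusted p = 0.00908, limma) and the mitochondrial transporter Abcb10 fell by 1.11, while Urod and Uros rose by 0.44 and 0.42. Of 13 genes whose enzymes act on P450 products or on related lipids, 6 (46.2%) fell and 1 (7.69%) rose, with a median of -0.10. The soluble epoxide hydrolase gene Ephx2 fell by 2.04 (adjusted p = 0.000531), with 11.13 and 10.92 in EphB2 High against 12.94 and 13.20 in EphB2 Low, and the aldehyde dehydrogenase gene Aldh1a1 fell by 3.45 (0.000602). The microsomal epoxide hydrolase gene Ephx1 rose by 1.06 (0.00464). Of the 19 measured P450 genes of other families, 3 (15.8%) were lower and 4 (21.1%) higher, with a median of 0.11, shares close to those of all genes.

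**Figure D5:**
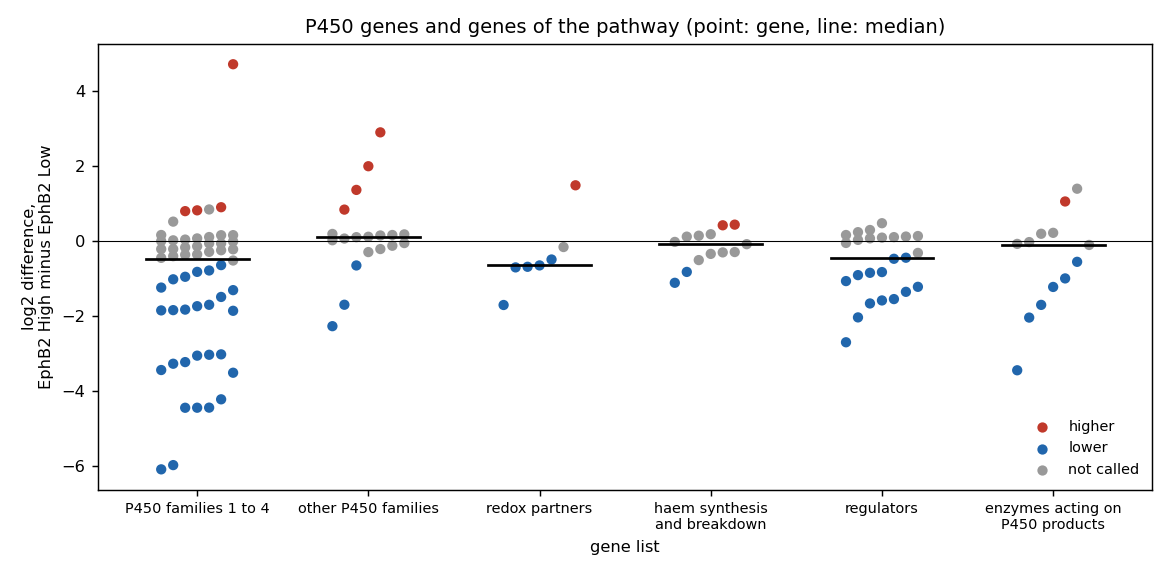
Log2 difference of EphB2 High minus EphB2 Low for the 56 P450 genes of families 1 to 4 and for the genes of 5 related lists, with a point per gene, a line at the list's median, blue for lower and red for higher (adjusted p below 0.05) and grey for not called. The median is -0.48 for families 1 to 4, -0.65 for the redox partners, -0.44 for the regulators and 0.11 for the other P450 families.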

How the data were processed

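The deposited table holds log2 expression values of 45101 Affymetrix probe sets on 8 arrays, made by the authors with RMA, per the submitters' processing notes. The sources used here do not state whether RMA was run on all arrays at once. Per the labels' protocols, 25 ng of total RNA per sample was amplified isothermally and labelled with biotin. Arrays with replicate number 1 of the EphB2 groups share hybridization 1, those with number 2 share hybridization 2, and both Lgr5 arrays form hybridization 3.

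The values were used as deposited. Platform annotation, whose names can be old, gave 34945 probe sets with 1 gene, 932 with several and 9160 with none, and 64 were controls; the 56 member gene IDs were all found in RefSeq (GRCm38.p6), the source of the promoter sequences. EphB2 groups were compared with limma 3.58.1 in R 4.3.3 (lmFit, contrasts and eBayes, groups only, 3 residual degrees of freedom), and the code was tested on simulated data. All adjusted p-values are Benjamini-Hochberg values over 18193 genes, called below 0.05. The few arrays limit the precision. The labels tie the replicate numbers to hybridizations, which pairs the samples; deviations of same-numbered arrays correlated at 0.452 (High and Medium), 0.131 (High and Low) and 0.212 (Medium and Low).

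Members and lists were chosen with earlier results of these data known. Named by rule were Cyp2e1 and Cyp3a11, up to 12 called members a direction in EphB2 High against Low and up to 6 in each other comparison by size of difference, the 5 uncalled members with the highest means, those nearest the threshold, and up to 4 called genes a list by p; further members were named after their values were seen. Marker lists for goblet, Paneth, enteroendocrine and tuft cells were also read. Alternatives were a hybridization block, quantile normalization, a filter on dim genes, limma-trend, the mean of a gene's probe sets, leaving out probe sets shared between transcripts, fitting 2 groups only and leaving out each array.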

Additional observations from a re-analysis of the deposited data

Results flagged for a closer look

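Among members lower in EphB2 High, 2 had the opposite sign in the Lgr5 sort, and this difference between the sorts was not tested, since Lgr5 groups have 1 array each. Cyp2c38 was 0.33 higher in Lgr5 High than in Lgr5 Low, and -0.50 and -1.15 in EphB2 High minus EphB2 Low in the first and second hybridization. Its levels were 3.37 in Lgr5 High and 3.03 in Lgr5 Low. Cyp2f2 was 0.072 higher in Lgr5 High, and -1.77 and -1.89 in EphB2 High minus EphB2 Low in the 2 hybridizations, with 2.58 in Lgr5 High and 2.51 in Lgr5 Low. Both genes lay below the median of all genes on every array.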

How the results depend on the processing

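In EphB2 High against EphB2 Low, all 31 calls remained with the hybridization block (replicate pairing), with quantile normalization and with limma-trend, and 30 remained with the mean of a gene's probe sets, where Cyp4f18 was lost. The filter on dim genes left 25 of the calls in the fit and all 25 passed, which is no separate support, since a gene can pass it through the group where it is high. Leaving out shared probe sets kept all 29. Leaving out each array in turn gave 24 to 27 members lower and 2 to 4 higher, with 2 higher without EphB2 High replicate 1. The block added Cyp2r1 and Cyp4x1 here, and beside these and the changes given above for the other comparisons it changed no other call of a member. In EphB2 Medium against EphB2 Low, leaving out each array gave 16 to 22 lower and 1 to 2 higher. In EphB2 High against EphB2 Medium, 0 to 5 members were lower without 1 array, against 10 with all, and 5 with the 2 groups alone; fewer arrays entered these fits. Without EphB2 Medium replicate 1 or 2, 0 members were called with limma, although 19 and 16 had an unadjusted p below 0.05. Cyp2e1 was called higher there, as the 1 member, with the filter on dim genes, limma-trend, the mean of probe sets and without EphB2 High replicate 1 (0 to 1 over the arrays left out); the cause was not tested. The difference of steps of Cyp3a11 was 0.54 without EphB2 High replicate 1 and 0.36 without EphB2 Medium replicate 2, against -0.61 with all arrays and -1.77 without EphB2 High replicate 2. The Lgr5 counts stayed within 1.5 times under every alternative run.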

Other observations

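Among P450 genes of other families, Cyp11a1, which starts steroid synthesis from cholesterol, had levels of 8.61 and 9.03 in EphB2 High, 7.54 and 7.66 in EphB2 Medium, and 5.84 and 5.98 in EphB2 Low, with no overlap. It was 2.91 higher in EphB2 High than in EphB2 Low (SE 0.17, adjusted p = 0.00029, limma), and had 8.74 in Lgr5 High against 7.23 in Lgr5 Low. Cyp39a1, an oxysterol hydroxylase, was 2.00 higher (adjusted p = 0.0142), and the vitamin D hydroxylase gene Cyp27b1 was 1.37 higher (0.017). Cyp27a1, a sterol hydroxylase of bile acid synthesis, had 9.15 and 9.01 in EphB2 High, 9.58 and 9.31 in EphB2 Medium, and 11.49 and 11.22 in EphB2 Low, a fall of 2.27 (adjusted p = 0.000468). Its High and Medium arrays lay close together and apart from the Low arrays.

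Of other cell type markers, 4 of 5 measured Paneth cell markers and 4 of 7 tuft cell markers were higher in EphB2 High than in EphB2 Low. Lower were 4 of 7 goblet, 4 of 8 enteroendocrine and 1 of 7 tuft cell markers. Over all genes, 22% were higher and 15.3% lower. In the Lgr5 sort, with 1 array a group, the median of the Paneth cell markers was 13.59 in Lgr5 High and 14.12 in Lgr5 Low. That of the tuft cell markers was 6.36 and 8.09, of the goblet cell markers 13.13 and 13.97, and of the enteroendocrine markers 8.32 and 10.97.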
